A study of Danio rerio with 24 samples.

Results

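The genes described here were the Meis and Pbx genes that the tables list under the symbols *meis1*, *meis2a*, *meis2b*, *meis3*, *pbx1a*, *pbx2*, *pbx3b* and *pbx4*. They were picked by symbol, with earlier results of these data known, and make up 8 of the 16361 gene identifiers in the tables of 1 h and of 4 h, and 9 of 18984 in the table of 8 h, where *pbx1a* stands under 2 identifiers. RNA was sequenced from pools of 35 whole zebrafish embryos of the strain *Tg(snail1b:GFP)*, a transgenic reporter line that both treatment groups carried. Embryos were exposed to TP-0903, a multi-kinase inhibitor, or to DMSO, its solvent, from 13 hpf and 8 somites onwards. Treatment lasted 1 h (collected at 14 hpf and 10 somites by the labels), 4 h (17 hpf, 16 somites) or 8 h (19.5 hpf, 21 somites). Each of the 6 conditions had 4 replicate libraries, 24 in all, and every library was made from a whole pool. A change in the number of cells that hold a transcript and a change in the amount of it per cell therefore cannot be told apart in any value below.

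Meis and Pbx proteins are homeodomain factors of the TALE class, which is defined by an extended loop within the homeodomain. Pbx proteins bind DNA together with Hox proteins, Meis proteins bind Pbx, and complexes of all of them occupy Hox target sites with greater selectivity than Hox proteins alone. In zebrafish, Meis binding also helps to bring Pbx into the nucleus and keep it stable. The best known setting of these genes in the zebrafish embryo is the hindbrain, where Pbx and Meis work with Hox proteins of the anterior groups to give rhombomeres their identity. Meis genes and the anterior Hox genes are also known to respond to retinoic acid in several vertebrate tissues.

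Total counts on genes were between 5254559 and 10536420 in the TP-0903 libraries of 1 h and between 3879310 and 7663030 in the DMSO libraries of 1 h. All libraries of 4 h and 8 h had between 5511206 and 10582470 counts. *cyp26a1*, the retinoic acid-degrading enzyme, was used to check the treatment labels, and its lowest TP-0903 library lay above its highest DMSO library at every time (log2 fold changes of 2.81 at 1 h, 4.10 at 4 h and 2.73 at 8 h). Markers of all 12 tissue lists were present, with at least 2 genes of each list in the tables of every time. The libraries of 1 h were uneven. The first principal component of the spread within conditions held 69.9% of that spread at 1 h, and it set TP-0903 replicates 1 and 3 and DMSO replicate 4 (between 20.3 and 66.1) apart from the other 5 libraries (between -38.1 and -14.8). Each library's value on this component is relative to the mean of its own condition, so TP-0903 and DMSO libraries do not share a common level on it. At 4 h and 8 h the first component held 36.8% and 28.0%. At 4 h it split by replicate number in both groups. Replicates 1 and 2 had positive values (between 6.87 and 32.2), and replicates 3 and 4 had negative ones (between -23.9 and -9.19).

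Levels between genes were compared per length, as deposited FPKM (counts set against gene length and depth). In the DMSO libraries of 4 h, *pbx4*, the gene of the lazarus mutant that is needed for hindbrain segment identity, had the highest level of the 8 genes (101 ± 6.41 FPKM, SD, n = 4). *meis1* came next (80.7 ± 1.42 FPKM), followed by *meis2b* (35.0 ± 1.09 FPKM), *meis3* (29.9 ± 0.80 FPKM), *meis2a* (25.1 ± 1.99 FPKM) and *pbx2* (22.3 ± 2.03 FPKM). *pbx3b* (2.93 ± 0.76 FPKM) and *pbx1a* (1.15 ± 0.83 FPKM) were far lower. Of the neighbours in this order, *meis2a* and *pbx2*, and *pbx3b* and *pbx1a*, overlapped between libraries, and the other 5 neighbouring pairs did not. In the TP-0903 libraries of 4 h the highest level was that of *meis1* (110 ± 7.18 FPKM), and its libraries overlapped with those of *pbx4* (90.7 ± 22.8 FPKM). At 8 h *pbx4* and *meis1* held the highest places in both groups, with 171 ± 5.93 and 151 ± 10.4 FPKM in TP-0903 libraries and 144 ± 7.72 and 108 ± 5.24 FPKM in DMSO libraries. The place of *meis2a* rests on a short gene model of about 749 bases in the table of 4 h, against 3380 for *meis2b*. How its FPKM would change with a longer model was not tested.

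After 1 h, none of the Meis and Pbx genes passed the test between TP-0903 and DMSO embryos. *meis2b* was the exception in one respect, since it was higher in every TP-0903 library than in any DMSO library. The other genes overlapped between the groups, and *pbx1a* had too few counts to be tested.

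*meis2b*, which in zebrafish is known for its part in dividing the atrium of the heart into compartments, had 170, 193, 158 and 168 CPM (counts scaled to a common library size) in the TP-0903 libraries of 1 h, against 121, 116, 123 and 125 CPM in the DMSO libraries. The groups did not overlap, as for 0.786% of all genes tested at 1 h in this direction and 0.702% in the other. Its log2 fold change was 0.50 (SE 0.11) and its unadjusted p was 0.00132 in edgeR's quasi-likelihood test, but the adjusted p was 0.9999 over 15530 genes (Benjamini-Hochberg). Of these genes 0 were called, which is 0% in each direction, while 214 had an unadjusted p under 0.05. An exact two-sided permutation test on *meis2b* alone gave p = 0.0286, the smallest that 4 libraries against 4 allow. Any gene whose groups do not overlap gets this p, so it restates the lack of overlap and is no further support. DESeq2, which called 13 genes at 1 h, gave *meis2b* an adjusted p of 0.00608 with a log2 fold change of 0.50, and edgeR on all 24 libraries gave it an adjusted p of 0.0295.

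The other genes varied widely between libraries of the same group at 1 h. *meis1*, known in vertebrates for its part in blood and eye development, had 285, 413, 219 and 408 CPM in TP-0903 replicates 1 to 4, against 304, 310, 286 and 206 CPM in DMSO replicates 1 to 4. TP-0903 replicates 1 and 3 and DMSO replicate 4 were thus its 3 lowest libraries. *meis3*, which in zebrafish works with Pbx4 and Hoxb1b to promote hindbrain fates, had 88.5, 128, 87.8 and 135 CPM in the TP-0903 libraries and 98.5, 106, 105 and 58.2 CPM in the DMSO libraries, with the same 3 libraries lowest. *pbx4* had 306, 420, 270 and 420 CPM in the TP-0903 libraries and 406, 401, 385 and 224 CPM in the DMSO libraries, again with these 3 lowest. *pbx2*, which acts beside *pbx4* in the zebrafish hindbrain, went the other way. It had 89.8, 82.5, 113 and 71.0 CPM in the TP-0903 libraries and 73.0, 74.6, 64.5 and 94.6 CPM in the DMSO libraries, so that the 3 libraries were its 3 highest. *meis2a* had 20.9, 34.7, 8.58 and 38.3 CPM in the TP-0903 libraries and 22.7, 25.8, 20.1 and 10.3 CPM in the DMSO libraries, with TP-0903 replicate 3 and DMSO replicate 4 lowest. *meis2b* did not follow this order.

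**Figure D1:**
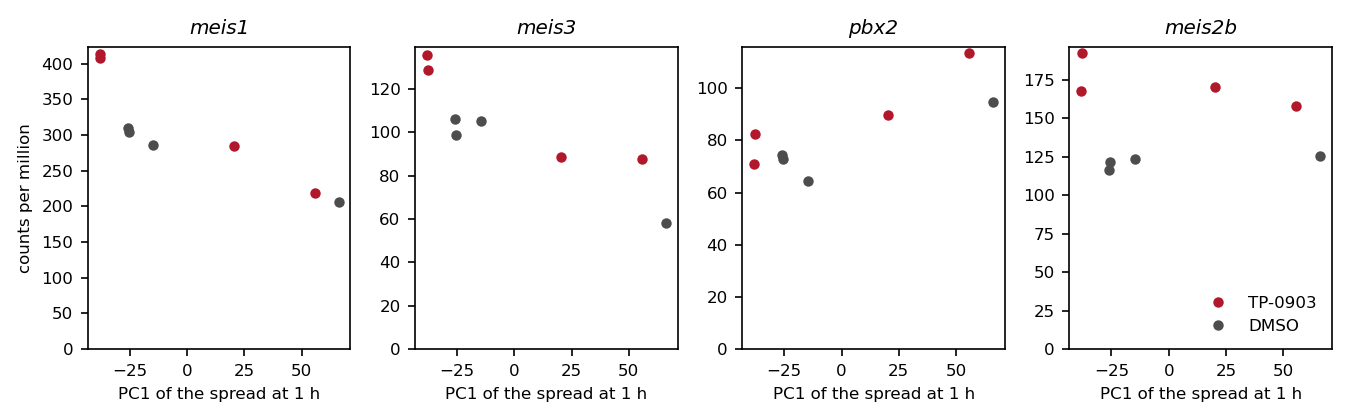
CPM (y axis) of *meis1*, *meis3*, *pbx2* and *meis2b* in the 8 libraries of 1 h against the first principal component of the spread within conditions (x axis, no unit), with 1 point per library, TP-0903 in red and DMSO in grey. The 3 libraries on the right, between 20.3 and 66.1, were the lowest for *meis1* and *meis3* and the highest for *pbx2*, while for *meis2b* all TP-0903 points lay above all DMSO points.

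With these 5 genes the log2 fold changes at 1 h were between -0.0014 (*pbx4*) and 0.35 (*meis2a*), with standard errors between 0.18 and 0.44. The 95% confidence interval for *meis1* ran from -0.25 to 0.77 and that for *pbx4* from -0.51 to 0.51, so a change of the size seen at later times was not detectable at 1 h. *pbx3b* had between 4.29 and 6.20 CPM in TP-0903 libraries and between 3.44 and 8.76 CPM in DMSO libraries. *pbx1a* had between 1 and 4 counts in TP-0903 libraries and between 1 and 3 counts in DMSO libraries. With the 3 uneven libraries left out, a choice made after seeing the data, edgeR called 222 genes and all 4 Meis genes (*meis1* 0.45, *meis2a* 0.65, *meis2b* 0.59, *meis3* 0.35 on the log2 scale, adjusted p between 7.4e-05 and 0.0123), but no Pbx gene. The fit of all libraries of 1 h had tested 15530 genes, beside which 222 is a small share. The fit without the 3 libraries rests on 2 TP-0903 libraries and 3 DMSO libraries. The libraries left out, TP-0903 replicates 1 and 3 and DMSO replicate 4, were the lowest for *meis1* and *meis3*. The choice is therefore not independent of these genes, whose log2 fold changes were both 0.26 with all libraries kept. With only TP-0903 replicate 3 and DMSO replicate 4 left out, 5 genes and none of the Meis and Pbx genes were called.

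After 4 h, 3 of the 4 Meis genes rose with TP-0903 and none of the 4 Pbx genes was called. *meis2a*, *meis2b* and *meis1* were higher by factors of 1.59, 1.53 and 1.37, and *meis3* was higher in every TP-0903 library than in any DMSO library without passing edgeR's test. All genes together gave 118 calls among 15953 tested (0.74%), 0.495% higher and 0.244% lower.

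*meis1* had 369, 339, 317 and 328 CPM in the TP-0903 libraries of 4 h, against 252, 245, 241 and 251 CPM in the DMSO libraries. The lowest TP-0903 library was well above all DMSO libraries, which lay close together. The log2 fold change was 0.45 (SE 0.077, 95% confidence interval from 0.28 to 0.62), with an adjusted p of 0.0207 in edgeR's quasi-likelihood test with Benjamini-Hochberg adjustment. *meis2a*, a gene of the developing brain and eye, had 34.0, 27.7, 26.0 and 31.7 CPM in TP-0903 libraries and 18.5, 20.4, 16.7 and 19.5 CPM in DMSO libraries. Its groups did not overlap, and it rose by 0.67 on the log2 scale (SE 0.11, adjusted p = 0.0175). *meis2b* had 215, 179, 165 and 164 CPM in TP-0903 libraries and 117, 123, 113 and 119 CPM in DMSO libraries. The lowest TP-0903 library again stood above the highest DMSO library, and the log2 fold change was 0.61 (SE 0.097, adjusted p = 0.0123). *meis3* had 106, 85.5, 106 and 106 CPM in TP-0903 libraries and 75.7, 76.9, 78.1 and 80.2 CPM in DMSO libraries. TP-0903 replicate 2 was apart from the other TP-0903 libraries but above all DMSO libraries. The log2 fold change of *meis3* was 0.38 (SE 0.088), with an unadjusted p of 0.00116 and an adjusted p of 0.105. All 4 Meis genes thus had groups that did not overlap in this direction, a pattern that 3.51% of all genes tested at 4 h showed, against 2.88% with TP-0903 libraries below.

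The Meis calls at 4 h stood close to the threshold, and each was lost in several of the fits that left out 1 library. *meis1* was not called without TP-0903 replicate 1 (log2 fold change 0.41, adjusted p = 0.0821), without DMSO replicate 1 (0.46, adjusted p = 0.0754), without DMSO replicate 2 (0.45, adjusted p = 0.0816), without DMSO replicate 3 (0.44, adjusted p = 0.101) or without DMSO replicate 4 (0.46, adjusted p = 0.0948). *meis2a* was not called without TP-0903 replicate 1 (0.61, adjusted p = 0.0681), DMSO replicate 1 (0.66, adjusted p = 0.0709), DMSO replicate 3 (0.62, adjusted p = 0.0828) or DMSO replicate 4 (0.69, adjusted p = 0.0701). *meis2b* was not called without DMSO replicate 1 (0.61, adjusted p = 0.0571), DMSO replicate 3 (0.59, adjusted p = 0.0657) or DMSO replicate 4 (0.62, adjusted p = 0.0610). In the fit of all 24 libraries *meis1* (adjusted p = 0.338) and *meis2a* (adjusted p = 0.625) were not called, and with counts thinned to the smallest library they were not called either (adjusted p = 0.0684 and 0.0877). *meis3* was called by DESeq2 (0.37, adjusted p = 0.0230), which called all 4 Meis genes, with length offsets and the replicate block together (0.37, adjusted p = 0.0334) and without TP-0903 replicate 2 (0.45, adjusted p = 0.0112). Without TP-0903 replicates 1 and 2 *meis3* was called (0.45, adjusted p = 0.0253), while *meis1* (0.38, adjusted p = 0.0562) and *meis2a* (0.63, adjusted p = 0.0683) were not. The direction held without each of the 8 libraries for all 4 genes, with *meis1* between 0.41 and 0.48, *meis2a* between 0.61 and 0.73, *meis2b* between 0.52 and 0.66 and *meis3* between 0.35 and 0.45 on the log2 scale.

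**Figure D2:**
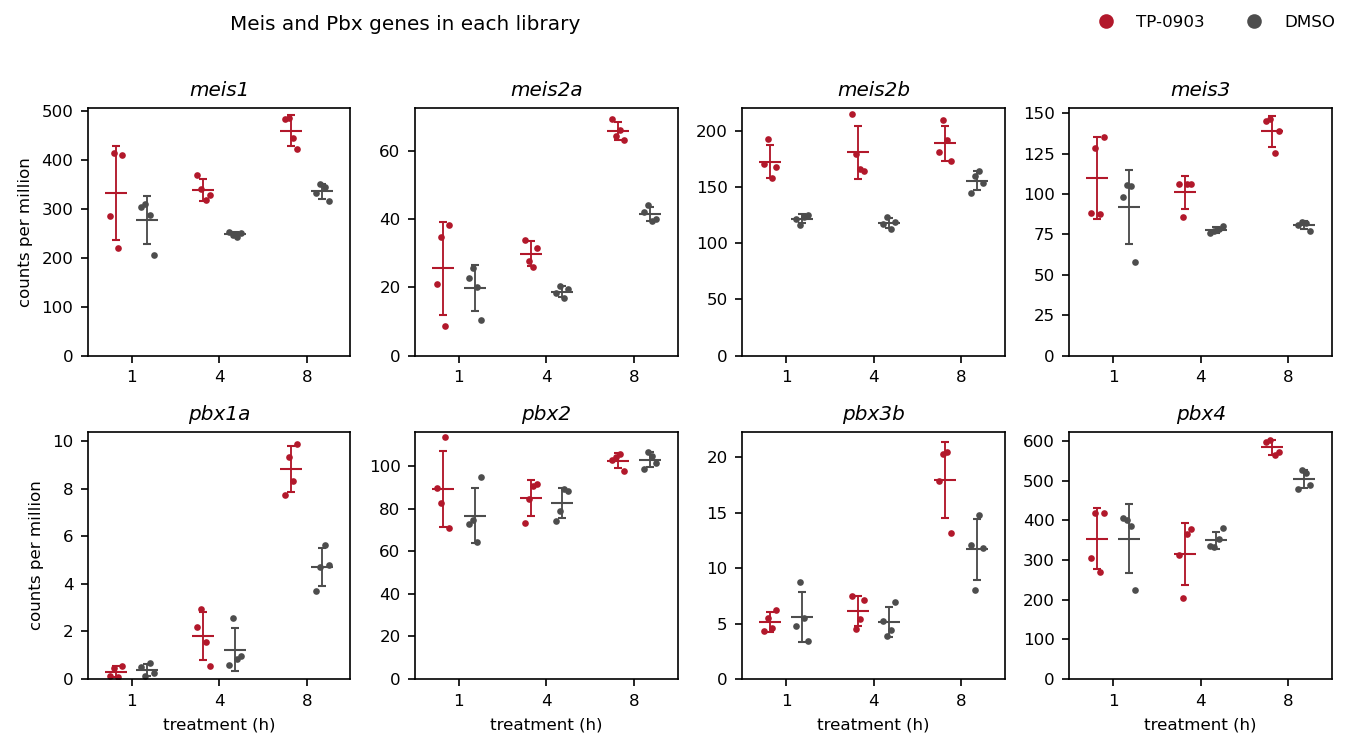
CPM (y axis, from 0) of the 8 genes in every library at 1, 4 and 8 h of treatment (x axis), with TP-0903 in red and DMSO in grey. Each point is a library, horizontal marks are means and bars are SD (n = 4), and *pbx1a* is drawn for the identifier present at all times. At 4 h the red and grey points separated for the 4 Meis genes and overlapped for the 4 Pbx genes, and at 8 h they overlapped for *pbx2* and *pbx3b* only.

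Among the Pbx genes at 4 h, *pbx4* had 312, 205, 365 and 378 CPM in TP-0903 libraries, against 335, 334, 352 and 380 CPM in DMSO libraries. TP-0903 replicate 2 was the lowest of the 8, and the other TP-0903 libraries lay near the DMSO range. The log2 fold change of *pbx4* was -0.15 (SE 0.16, adjusted p = 0.777), with an interval from -0.50 to 0.20, and without TP-0903 replicate 2 it was 0.0068. *pbx2* had 73.4, 84.6, 90.8 and 91.3 CPM in TP-0903 libraries and 74.2, 78.9, 89.0 and 88.3 CPM in DMSO libraries, which is a log2 fold change of 0.04 with an interval from -0.17 to 0.25. The upper bound for *pbx2* lay below the estimates for all 4 Meis genes. *pbx3b* had between 4.55 and 7.45 CPM in TP-0903 libraries and between 3.89 and 6.94 CPM in DMSO libraries (0.25, interval from -0.23 to 0.74). *pbx1a* had between 5 and 20 counts in TP-0903 libraries and between 5 and 19 counts in DMSO libraries (0.53, interval from -0.66 to 1.73). For *pbx3b* and *pbx1a* a change as large as that of the Meis genes was not detectable at this depth.

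Of the tissue markers at 4 h, 1 gene of the tailbud list was called lower, and none of the neural crest or neural tube lists was called. The summed level of the 3 tailbud markers in the tables was between 67.9 and 188 CPM in TP-0903 libraries and between 178 and 270 CPM in DMSO libraries. The 4 neural crest markers summed to between 265 and 290 CPM in TP-0903 libraries and to between 251 and 265 CPM in DMSO libraries. The 6 neural tube markers summed to between 814 and 974 CPM in TP-0903 libraries and to between 919 and 994 CPM in DMSO libraries. The tailbud and neural tube sums overlapped. The neural crest sums did not, by a narrow margin: the lowest TP-0903 library had 265.38 CPM and the highest DMSO library 265.18 CPM. The part of these tissues in the Meis values was not tested.

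After 8 h, 7 of the 8 genes rose with TP-0903 and *pbx2* was not called. The largest changes were those of the 2 *pbx1a* identifiers, which stayed at low levels, followed by *meis3* (by a factor of 1.72), *meis2a* (1.59) and *pbx3b* (1.53). The larger *pbx1a* change, that of ENSDARG00000086991, is not independent of the filter on low counts. The changes of *pbx4* and *meis2b* were the smallest of those called (1.16 and 1.21). At this time 5050 of 17478 genes were called (28.9%), 15.4% higher and 13.5% lower, so a single call counts for less than at 4 h.

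*meis3* had 145, 147, 125 and 139 CPM in the TP-0903 libraries of 8 h, against 80.8, 82.5, 82.4 and 77.3 CPM in the DMSO libraries. The groups were far apart, and the log2 fold change was 0.78 (SE 0.071, 95% confidence interval from 0.63 to 0.94, adjusted p = 2.79e-06 in edgeR's quasi-likelihood test with Benjamini-Hochberg adjustment). *meis2a* had 69.5, 64.5, 66.3 and 63.4 CPM in TP-0903 libraries and 42.1, 44.2, 39.5 and 40.2 CPM in DMSO libraries. Its groups were as clearly apart, and its log2 fold change was 0.67 (SE 0.074, adjusted p = 1.57e-05). *meis1* had 484, 485, 445 and 421 CPM in TP-0903 libraries and 331, 350, 344 and 316 CPM in DMSO libraries. It rose by 0.45 on the log2 scale (SE 0.069, adjusted p = 0.000252), with no overlap. *meis2b* had 181, 209, 192 and 173 CPM in TP-0903 libraries and 144, 160, 164 and 153 CPM in DMSO libraries. The groups came close to each other without overlap, and the log2 fold change was 0.28 (SE 0.075, adjusted p = 0.0123). The 4 Meis genes passed the test without each of the 8 libraries in turn.

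*pbx4* had 598, 602, 564 and 573 CPM in the TP-0903 libraries of 8 h, against 479, 528, 520 and 490 CPM in the DMSO libraries. All TP-0903 libraries were higher, and the log2 fold change was 0.21 (SE 0.062, adjusted p = 0.0192). It was not called without TP-0903 replicate 1 (0.20, adjusted p = 0.0686), TP-0903 replicate 2 (0.20, adjusted p = 0.0608) or DMSO replicate 1 (0.19, adjusted p = 0.0528), nor with a trend on gene length removed (0.16, adjusted p = 0.0660). *pbx3b*, a gene whose mouse counterpart is known for its part in neurons that control breathing, had 17.8, 20.3, 20.4 and 13.1 CPM in TP-0903 libraries and 12.1, 8.06, 14.8 and 11.8 CPM in DMSO libraries. The groups overlapped, since TP-0903 replicate 4 lay below DMSO replicate 3. It rose by 0.62 on the log2 scale (SE 0.18, adjusted p = 0.0174), and the call was lost without TP-0903 replicate 2 (0.55, adjusted p = 0.0545), TP-0903 replicate 3 (0.54, adjusted p = 0.0576) or DMSO replicate 2 (0.47, adjusted p = 0.0517).

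*pbx2* had 103, 104, 106 and 97.6 CPM in TP-0903 libraries and 98.6, 106, 105 and 101 CPM in DMSO libraries of 8 h. The groups overlapped throughout. Its log2 fold change was -0.0054 (adjusted p = 0.959), and the interval from -0.14 to 0.13 lay below the estimate of each gene that was called.

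*pbx1a* was counted under 2 identifiers at 8 h. ENSDARG00000089610, the identifier also present at 1 h and 4 h, had 7.73, 9.32, 8.30 and 9.88 CPM in TP-0903 libraries and 3.68, 4.72, 5.62 and 4.80 CPM in DMSO libraries. Its log2 fold change was 0.90 (SE 0.16, adjusted p = 0.000905). ENSDARG00000086991 had 7.29, 6.21, 5.53 and 5.91 CPM in TP-0903 libraries and 0.658, 1.96, 2.10 and 1.96 CPM in DMSO libraries, which is between 46 and 56 counts in TP-0903 libraries and between 5 and 19 counts in DMSO libraries. Its log2 fold change was 1.86 (SE 0.25, adjusted p = 9.05e-05). With 5 counts in DMSO replicate 1, ENSDARG00000086991 would not have passed the filter on low counts through the DMSO libraries alone. It passed with the TP-0903 libraries, where it was high. Its call, the size of its change and its lack of overlap are therefore not independent of that filter. Neither identifier overlapped between the groups. Whether they are separate genes or parts of the same gene was not tested. In the fit of all 24 libraries *meis2a* (adjusted p = 0.104), *pbx3b* (adjusted p = 0.0651), *pbx4* (adjusted p = 0.442) and ENSDARG00000089610 (adjusted p = 0.0567) were not called at 8 h, and with thinned counts *meis2b* (adjusted p = 0.0832) and ENSDARG00000089610 (adjusted p = 0.0540) were not, all with the same direction. Without overlap, 7 of the 9 identifiers were higher in TP-0903 libraries at 8 h, against 15.5% of all genes tested, with 13.3% lower in the same way. ENSDARG00000086991, with the limit given above, is among the 7.

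**Figure D3:**
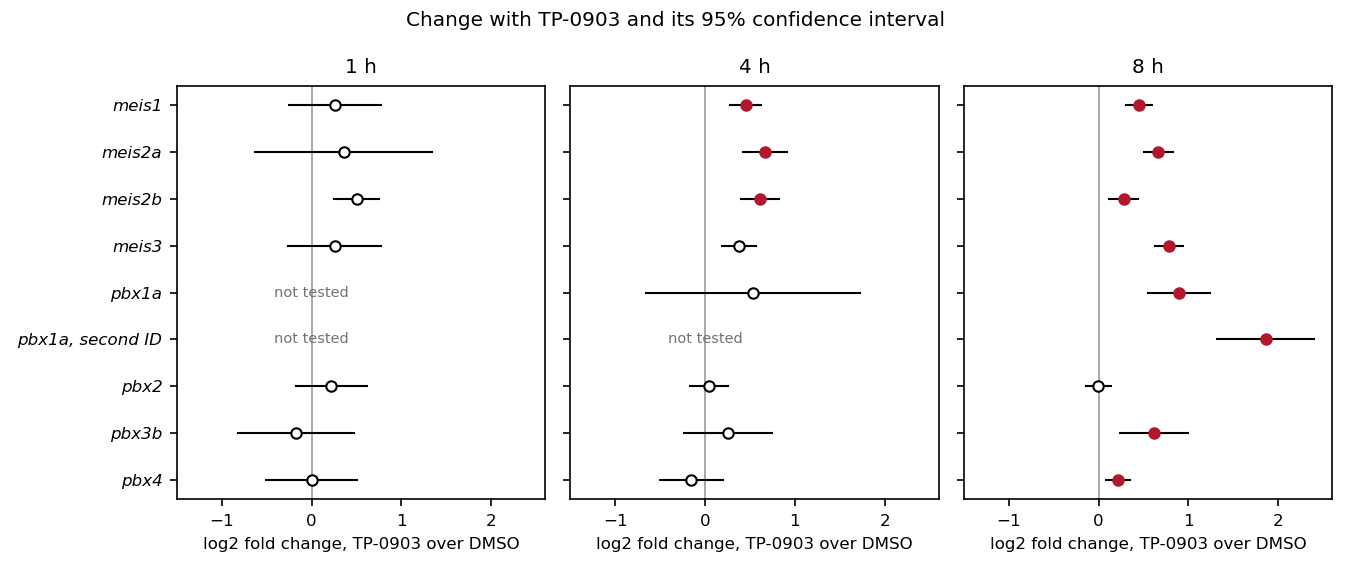
Log2 fold change of TP-0903 over DMSO (x axis) with its 95% confidence interval for the Meis and Pbx identifiers at 1, 4 and 8 h, from edgeR's quasi-likelihood test. Filled points passed an adjusted p of 0.05 over all genes. Only *meis1*, *meis2a* and *meis2b* are filled at 4 h, and all but *pbx2* are filled at 8 h.

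At 8 h the markers of some tissues differed in sum as well. The 4 neural crest markers summed to between 220 and 236 CPM in TP-0903 libraries and to between 274 and 291 CPM in DMSO libraries. The 4 endothelium markers summed to between 123 and 140 CPM in TP-0903 libraries and to between 173 and 188 CPM in DMSO libraries. The 2 endoderm markers summed to between 33.0 and 36.4 CPM in TP-0903 libraries and to between 40.3 and 50.6 CPM in DMSO libraries. All 4 epidermis markers were called lower, though their sums overlapped (between 10178 and 12038 CPM in TP-0903 libraries, between 11935 and 14907 CPM in DMSO libraries). The 6 neural tube markers (between 1162 and 1331 CPM in TP-0903 libraries, between 1122 and 1302 CPM in DMSO libraries) and the 4 eye markers (between 115 and 144 CPM in TP-0903 libraries, between 113 and 136 CPM in DMSO libraries) overlapped in sum, with 3 neural tube markers called higher and 1 lower (median log2 fold change 0.22) and 0 eye markers called. The part of these tissues in the Meis and Pbx values was not tested.

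Whether the effect of TP-0903 differed between times was tested as the interaction of treatment and time over 16 libraries. Between 8 h and 4 h only *meis3* was called among the 8 genes with a tested identifier. Its log2 fold change at 8 h exceeded that at 4 h by 0.43 (SE 0.11, adjusted p = 0.0175 in edgeR's quasi-likelihood test with Benjamini-Hochberg adjustment), when 6.43% of 15913 genes were called in this direction and 7.74% in the other. The difference for *meis3* passed the test without each of the 16 libraries in turn and under all 5 other alternatives, with values between 0.36 and 0.47. *meis2b* went the other way (-0.31, SE 0.13), with an adjusted p of 0.103 that did not pass. *pbx4* differed by 0.39 (SE 0.18, adjusted p = 0.156). For *meis1* the difference was 0.02 with an interval from -0.20 to 0.24, and for *meis2a* it was 0.02 with an interval from -0.26 to 0.29. The Pbx calls of 8 h were therefore not shown to differ from the values of 4 h for any Pbx gene, and *pbx3b* (0.39, interval from -0.25 to 1.02) and *pbx1a* (0.39, interval from -0.72 to 1.51) had wide intervals. Between 4 h and 1 h, 0 of 16283 genes were called by edgeR, which is 0% in each direction, 343 had an unadjusted p under 0.05, and DESeq2 called 7, none of them a Meis or Pbx gene.

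The course in DMSO embryos gives the levels against which these changes stand. Between 17 hpf and 19.5 hpf, 7 of the 8 genes were higher at the later stage and *meis3* was not called. *pbx1a* (log2 difference 1.99, SE 0.33), *pbx3b* (1.18, SE 0.21) and *meis2a* (1.14, SE 0.093) had the largest differences. *pbx1a* had between 5 and 19 counts in DMSO libraries of 4 h and between 28 and 51 at 8 h. It passed the filter on low counts through the libraries of 8 h, where it was high. Its call and its place in this order are therefore not independent of that filter. *pbx4* (0.52), *meis1* (0.43), *meis2b* (0.39) and *pbx2* (0.31) had smaller ones, with adjusted p-values of at most 0.00345 by edgeR's quasi-likelihood test. At this step 51.9% of 15787 genes were called, 27.5% higher and 24.4% lower, so 7 of 8 is to be read against a table in which most genes were called. *meis3* had 80.7 ± 2.45 CPM at 8 h and 77.7 ± 1.93 CPM at 4 h in DMSO libraries (SD, n = 4 each, log2 difference 0.05, adjusted p = 0.563). Of the 8 genes *meis3* thus had the smallest estimate between the DMSO stages, and at 8 h it had the largest estimate under TP-0903 after *pbx1a*. Between 14 hpf and 17 hpf none of the 7 tested genes was called, against 10.8% of genes called higher and 8.27% lower. Without DMSO replicate 4 of 1 h, *meis1* (-0.24, adjusted p = 0.00680) and *meis3* (-0.37, adjusted p = 0.000642) were called lower and *pbx2* (0.26, adjusted p = 0.0266) was called higher at 17 hpf. That fit called 7627 genes in all, against 3042 with all libraries kept, so calls of members count for little there. Replicate 4 was the lowest DMSO library of 1 h for *meis1* and *meis3* and the highest for *pbx2*. Leaving it out is therefore not independent of these genes. Stage and table cannot be told apart in these comparisons, since each time is a table of its own. The name of the table of 8 h also bears another code than the names of those of 1 h and 4 h. What this code stands for is not known here, and it cannot be told apart from stage either.

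Summed over the members, the Meis genes had 241 ± 18.7 FPKM in TP-0903 libraries and 171 ± 3.56 FPKM in DMSO libraries of 4 h (SD, n = 4 each), and 350 ± 17.6 FPKM in TP-0903 libraries and 239 ± 9.92 FPKM in DMSO libraries of 8 h. The Pbx genes summed to 119 ± 23.4 FPKM in TP-0903 libraries and 128 ± 8.42 FPKM in DMSO libraries of 4 h, and to 222 ± 7.14 FPKM in TP-0903 libraries and 184 ± 9.72 FPKM in DMSO libraries of 8 h. The Meis sum over the Pbx sum was between 1.69 and 2.67 in TP-0903 libraries and between 1.26 and 1.42 in DMSO libraries of 4 h. At 8 h it was between 1.53 and 1.61 in TP-0903 libraries and between 1.26 and 1.35 in DMSO libraries. TP-0903 replicates 1 and 2 carried the highest ratios of 4 h, and TP-0903 replicate 2 had the lowest *pbx4* level. At 1 h the ratio was between 1.47 and 1.98 in TP-0903 libraries and between 1.45 and 1.52 in DMSO libraries. The mean shares of 8 h differed little: *pbx4* made up 76.7% ± 0.83 of the Pbx sum in TP-0903 libraries and 78.4% ± 0.90 in DMSO libraries, and *meis1* made up 43.1% ± 0.83 of the Meis sum in TP-0903 libraries and 45.2% ± 0.53 in DMSO libraries. The *meis1* share was nonetheless lower in every TP-0903 library than in any DMSO library at 8 h and 1 h, and overlapped at 4 h. The *pbx4* share of 4 h was between 67.8% and 79.0% in TP-0903 libraries and between 78.9% and 80.5% in DMSO libraries. The Pbx sum of 8 h includes the second *pbx1a* identifier, ENSDARG00000086991, which is not listed at 1 h and 4 h. It had means of 5.26 FPKM in TP-0903 libraries and 1.38 FPKM in DMSO libraries. The sums, shares and ratios leave out MEIS2 (2 of 2) and PBX4 (2 of 2), described below. At 4 h these had means of 32.4 and 40.7 FPKM in TP-0903 libraries and 18.7 and 41.5 FPKM in DMSO libraries. At 8 h the means were 65.3 and 67.2 FPKM in TP-0903 libraries and 43.6 and 54.7 FPKM in DMSO libraries. All these sums weight each gene by its level and its annotated length and are given without a test.

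**Figure D4:**
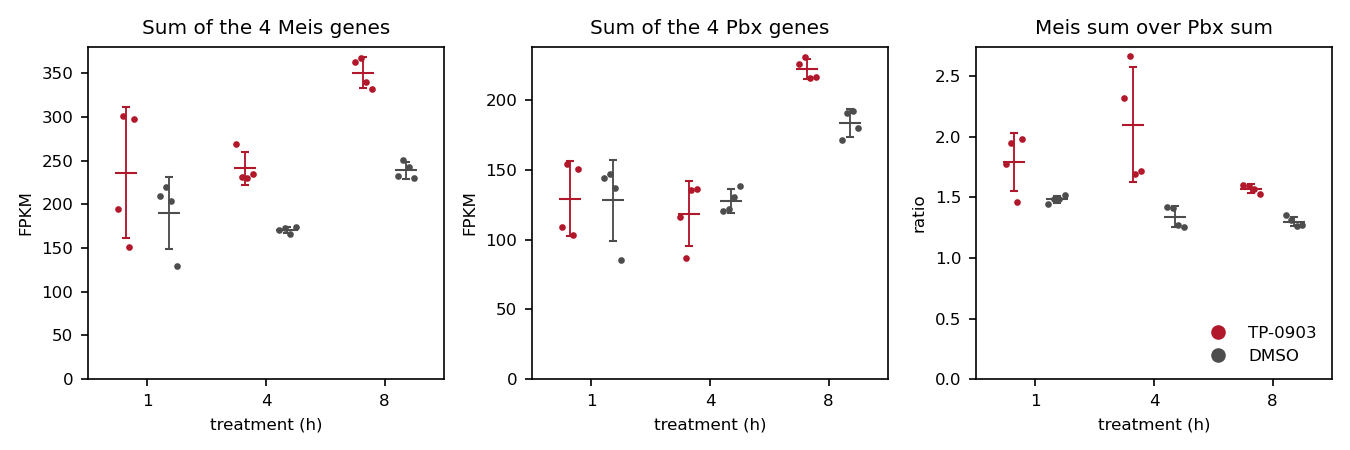
Summed FPKM of the 4 Meis genes, summed FPKM of the 4 Pbx genes and the ratio of the sums (y axes, from 0) at 1, 4 and 8 h (x axes), with 1 point per library, TP-0903 in red and DMSO in grey, and marks for mean and SD (n = 4). The Meis sums separated by treatment at 4 h and 8 h, the Pbx sums only at 8 h, and the ratio at 4 h and 8 h. The Pbx sum of 8 h includes both *pbx1a* identifiers.

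The tables list further sequences under names of the same genes. MEIS2 (2 of 2), an identifier with a gene model of about 493 bases that was picked out after its values were seen, had 18.7, 16.0, 13.7 and 15.9 CPM in TP-0903 libraries and 9.76, 10.7, 8.42 and 8.00 CPM in DMSO libraries of 4 h. Its log2 fold change was 0.80 at 4 h (adjusted p = 0.0222 by edgeR) and 0.55 at 8 h (adjusted p = 0.000797), and over the 24 libraries its log2 CPM had a Pearson correlation of 0.95 with that of *meis2a*. PBX4 (2 of 2) had a log2 fold change of -0.01 at 4 h (adjusted p = 0.992) and 0.27 at 8 h (adjusted p = 0.0431), and a correlation of 0.91 with *pbx4*. How reads were divided between these sequences and *meis2a* or *pbx4* is not known, so the levels of both genes are uncertain to that extent.

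Among the genes of the related Prep family, whose products bind Pbx as Meis proteins do, *pknox1.2* rose by 0.62 at 8 h (SE 0.11, adjusted p = 0.000942 by edgeR). It also passed the interaction between 8 h and 4 h (0.65, adjusted p = 0.0235 by edgeR). *pknox2* was lower at 4 h, with 4.72, 4.55, 5.98 and 5.62 CPM in TP-0903 libraries and 7.90, 9.66, 8.89 and 9.60 CPM in DMSO libraries (log2 fold change -0.78, adjusted p = 0.0362), and did not pass at 8 h (-0.27, adjusted p = 0.134). Both *pknox1.1* identifiers stayed within 0.13 of 0 on the log2 scale at 4 h and 8 h, with adjusted p-values of at least 0.796. The Pbx-interacting genes *pbxip1a* and *pbxip1b* were not called at any time.

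The Hox genes, the partners of these cofactors, split by position in their clusters. Of the 17 genes of Hox groups 1 to 5 tested at 4 h, 7 were called higher and 0 lower with a median log2 fold change of 0.87, beside a median of 0.0011 over all genes. *hoxb1a* (1.73) and *hoxb1b* (1.56), the rhombomere genes with which Meis3 and Pbx4 act in zebrafish, and *hoxb5b* (1.66) and *hoxb5a* (1.35) changed most. Of the 19 genes of Hox groups 9 to 13 tested at 4 h, 0 were called higher and 13 lower (median -1.18), with *hoxc12b* at -4.25 and *hoxc12a* at -3.91. Of the 8 genes of groups 6 to 8, 2 were called higher. At 8 h groups 1 to 5 had 16 genes called higher and 1 lower of 17 (median 1.29), groups 6 to 8 had 4 higher and 1 lower of 8 (median 0.45), and groups 9 to 13 had 0 higher and 5 lower of 11 (median -0.46). The Meis changes at both times were smaller than the median of Hox groups 1 to 5.

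Genes downstream or beside these factors were described in the same way. Over all genes 0.74% were called at 4 h and 28.9% at 8 h (15.4% higher, 13.5% lower). The counts of these lists and of the Hox groups stand beside those shares. Of 15 hindbrain segment genes, 2 were called higher at 4 h (*hnf1ba* 0.63 and *fgf8a* 0.55) and 0 lower. At 8 h 1 was called higher and 5 lower, among them *egr2b*, which marks rhombomeres 3 and 5, at -4.24, and *mafba*, a regulator of rhombomeres 5 and 6, at -0.94. Of 28 retinoid pathway genes 7 were called higher and 3 lower at 4 h, with *cyp26a1*, *dhrs3b* (3.61) and *dhrs3a* (3.18) leading, and 12 higher and 6 lower at 8 h. The lists gave medians of -0.26 (hindbrain) and 0.04 (retinoid) at 4 h and of -0.21 and 0.12 at 8 h. Fast muscle genes are activated by Pbx and Myod together in zebrafish. The list of Myod and fast muscle genes had 0 of 13 called at 4 h. At 8 h it had 12 higher and 3 lower of 17 (median 0.62), with *tnnt3b* at 3.37 and *myog*, a myogenic regulator, at -2.57. The summed muscle markers of 8 h were between 3475 and 4062 CPM in TP-0903 libraries and between 2947 and 3566 CPM in DMSO libraries. Of the 4 Engrailed genes, whose products also bind Pbx, 0 were called between TP-0903 and DMSO at any time, and only 2 were tested at 1 h. Of 14 eye field and retina genes, 0 were called at 4 h and 3 higher and 3 lower at 8 h. Of the other TALE genes (Iroquois, Tgif and Mohawk), 1 of 9 was called at 4 h (*irx7*, -0.81), and 2 higher and 4 lower of 12 at 8 h, with *irx7* at -1.26. At 1 h no gene of these lists was called.

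The genes most like each member in log2 CPM were taken over the 24 libraries, among 15326 genes at 1 CPM or more in every table. The libraries share stage, treatment and depth, so these correlations are a description. *meis1* was most like *meis2a* (Pearson r = 0.94), and *meis2a* was most like *col27a1a* (0.96), *phc2b* (0.96) and MEIS2 (2 of 2). *meis3* was most like *hoxd4a* (0.91), *rxrgb* (0.90) and *hoxc4a* (0.89), of which the first and the last are Hox genes of group 4 and *rxrgb* encodes a retinoid X receptor. *meis2b* was most like *nrip1a* (0.92), *tsc22d3* (0.89) and zgc:194209 (0.88). *pbx4* was most like ENSDARG00000073944 (0.98), *mpp5a* (0.98) and *fbrsl1* (0.97), and *pbx3b* was most like *sh3kbp1* (0.95), *pknox1.2* (0.94) and *hivep2a* (0.94). *pbx2* was most like *lbr* (0.92), *ttpal* (0.88) and *rap1b* (0.87). After the mean of each condition was taken out, *meis1* still had r = 0.95 with *meis2a* and 0.84 with *meis3*, while *pbx2* had -0.77 with *meis1* and *meis3* had 0.90 with *pbx4*. The 3 uneven libraries of 1 h are among the points, and there *meis1*, *meis3* and *pbx4* were lowest and *pbx2* was highest.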

How the data were processed

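The authors made stranded, ribosome-depleted libraries from whole-embryo RNA, mapped the reads with Novoalign (zv9 genome plus exon junctions), and used USeq to count alignments per Ensembl gene. The submitters' processing notes name Novoalign 2.08.03 and DESeq2 1.4.5. The authors deposited raw counts in 1 table per time. The FPKM values deposited beside them are the same counts set against gene length and depth. The deposited log2 fold changes and scores are the authors' own DESeq2 comparison and were not used. The labels give 19.5 hpf for embryos treated for 8 h from 13 hpf.

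Counts were fitted in R 4.3.3 with edgeR 4.0.16 (filterByExpr, TMM, estimateDisp, glmQLFit, glmQLFTest), each time apart, with Benjamini-Hochberg adjustment over all genes and a threshold of 0.05. The main design differs from the authors' DESeq2, which was an alternative (DESeq2 1.42.0), as was limma 3.58.1. Standard errors are the absolute log2 fold change over the root of F. CPM used TMM library sizes. Correlations used log2 CPM with a prior count of 2. Interactions and DMSO stages used genes in both tables (16361 for 4 h and 1 h, 15973 for 8 h and 4 h). Single genes were also compared by exact two-sided permutation tests. Groups came from the sample titles, and the paper calls the replicates biological.

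The members, gene lists and marker lists were chosen with earlier results of these data known. All 8 members are named. Of each list, up to 4 genes past the threshold with the largest absolute log2 fold change may be named. The 3 genes most like each member are named by Pearson correlation, and *pbx1a* was too low for this. Alternatives were other normalizations, tests, filters and dispersion settings, all 24 libraries in 1 fit, counts thinned to the smallest total (3879310), a length trend removed, the replicate number as a block, and each library left out in turn. Leaving out 3 libraries of 1 h together, and TP-0903 replicates 1 and 2 of 4 h, were 2 settings added after seeing the data. The steps were tested on simulated counts that were drawn for each gene apart. Such counts hold no spread shared between genes, so that test does not cover the uneven libraries of 1 h. No coordinates or sequences were used, and 1 further gene of these families is not reported here.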

Additional observations from a re-analysis of the deposited data

Results flagged for a closer look

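In 4 of 50 groups of 4 libraries, 1 library's CPM stood apart from the other 3 beyond the 95% critical value of Dixon's ratio (gap over range), which chance alone exceeds in about 1 of 20 groups. DMSO replicate 4 of 1 h was far below the others for *meis3* (58.2 CPM, nearest 98.5 CPM, ratio 0.845) and for *pbx4* (224 CPM, nearest 385 CPM, ratio 0.883). TP-0903 replicate 2 of 4 h was far below the others for *meis3* (85.5 CPM, nearest 106 CPM, ratio 0.981). DMSO replicate 1 of 8 h was far below the others for the *pbx1a* identifier ENSDARG00000086991 (0.658 CPM, nearest 1.96 CPM, ratio 0.904), and without that library its log2 fold change was 1.62.

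The effect of TP-0903 on *meis3* differed between 8 h and 4 h by 0.43 on the log2 scale (SE 0.11, adjusted p = 0.0175 in edgeR's quasi-likelihood test of the interaction), with 0.78 at 8 h and 0.38 at 4 h.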

How the results depend on the processing

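At 1 h edgeR called 0 genes and 0 Meis and Pbx genes, while DESeq2 and the fit of all 24 libraries each called 13 genes, among them 1 member, *meis2b*. Length offsets, limma voom and thinned counts each called 1 gene there and no member. Without TP-0903 replicate 3 and DMSO replicate 4, 5 genes were called, and with TP-0903 replicate 1 left out as well 222 genes and 4 members. At 4 h the 118 calls became 215 with DESeq2, 62 with thinned counts and 67 without TP-0903 replicates 1 and 2, and the 3 members became 4 with DESeq2 and with length offsets and the block together (*meis3* gained), 2 without TP-0903 replicates 1 and 2, 1 in the fit of all 24 libraries and 1 with thinned counts. At 8 h the 5050 calls became 1478 in the fit of all 24 libraries, with 3 members, and 2814 with thinned counts. DESeq2 called 7 genes for the interaction of 4 h and 1 h, and with length offsets 2 members (*meis3* and *meis2b*) were called for that of 8 h and 4 h. Over all genes tested, the log2 fold change had a Spearman correlation with gene length of -0.12 at 1 h, -0.27 at 4 h and 0.22 at 8 h. For the interaction of 8 h and 4 h the correlation was 0.34. Shorter genes thus tended to higher values at 4 h and longer genes at 8 h. With single libraries left out, the counts ran from 0 to 2 genes at 1 h, from 56 to 131 genes and 0 to 4 members at 4 h, from 1453 to 2546 genes for the interaction of 8 h and 4 h, and from 1720 to 7627 genes and 0 to 3 members between the DMSO stages of 4 h and 1 h. At 4 h the count was 63 genes without TP-0903 replicate 1 and 66, 74, 60 and 56 genes without DMSO replicates 1 to 4. For the interaction of 8 h and 4 h it was 1453 without TP-0903 replicate 1 of 8 h, and between the DMSO stages 1720 and 7627 without replicates 3 and 4 of 1 h, and 1817 and 1898 without replicates 1 and 2 of 4 h. The cause of these shifts was not tested.

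Some values, none of them past the threshold, changed sign. *pbx4* at 1 h was 0.0032 without a filter, 0.0078 with length offsets, 0.0189 with limma voom, 0.0473 with thinned counts, 0.0075 with the replicate block, 0.0163 with length offsets and the replicate block, and 0.0815 without the 3 uneven libraries. *pbx2* at 8 h was 0.0171 with upper quartile normalization, 0.0264 in the fit of all 24 libraries and 0.0488 with thinned counts. Without TP-0903 replicates 1 and 2 of 4 h, *pbx4* was 0.0851 and *pbx1a* -0.25. With length offsets the interaction of 8 h and 4 h was -0.0179 for *meis1*, and the DMSO difference of 4 h and 1 h was 0.0404 for *meis2b*. With single libraries left out, *pbx4* ran from -0.17 to 0.11 at 1 h and from -0.25 to 0.0068 at 4 h, *pbx3b* from -0.35 to 0.16 at 1 h, and *pbx2* from -0.0047 to 0.11 at 4 h and from -0.0280 to 0.0175 at 8 h. The interaction of 4 h and 1 h ran from -0.25 to 0.0270 for *pbx4*. That of 8 h and 4 h ran from -0.0080 to 0.0672 for *meis1*, from -0.0427 to 0.0804 for *meis2a*, from -0.0908 to 0.0169 for *pbx2* and from -0.16 to 0.78 for *pbx1a*. The DMSO difference of 4 h and 1 h ran from -0.27 to 0.12 for *meis2a*, from -0.0237 to 0.0236 for *meis2b*, from -0.34 to 0.20 for *pbx3b* and from -0.14 to 0.10 for *pbx4*.

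The replicate number as a block gave 223 genes and the same number of members (3) at 4 h, 319 genes together with length offsets, and 0 genes at 1 h. At 8 h it ended the call of *pbx4* (0.21, adjusted p = 0.0502 by edgeR), with 6 of the members called, and it changed no other call of a member within a time. Samples with the same number had correlations of their deviations between -0.73 and 0.60 at 1 h, between 0.079 and 0.44 at 4 h and between -0.084 and 0.057 at 8 h. Not every pair passed 0.1 at any time, so the numbers were not taken as pairs, although at 4 h 3 of 4 pairs did and 3 of 4 TP-0903 libraries correlated best with the DMSO library of their own number. The 1 h libraries and the low counts of *pbx1a* and *pbx3b* limit what these data can show.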
